A study of Mus musculus with 6 samples.

Results

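The genes described here encode the extracellular and membrane part of Wnt signalling: the secreted Wnt ligands, their Frizzled receptors and co-receptors, the R-spondins and their LGR receptors, and the secreted inhibitors. They were taken by gene symbol from the deposited count table: every Wnt, Fzd, Sfrp, Dkk and Rspo gene, Lgr4, Lgr5 and Lgr6, and Wif1, Axin2, Lrp5, Lrp6, Ror1 and Ror2. This gave 50 of the 24421 genes in the table, namely 19 ligands, 10 Frizzled receptors, 4 co-receptors, 7 R-spondins and LGR receptors, 9 secreted inhibitors and the feedback gene Axin2. RNA came from engineered muscle of C2C12, an immortal mouse myoblast line whose cells fuse into myotubes. The cells were held in type I collagen between artificial tendons. One group of 3 constructs received TNF-alpha, an inflammatory cytokine, at 100 ng/mL for 72 h, and the other group of 3 received the vehicle, phosphate-buffered saline. All 6 constructs were of this 1 line, so they model muscle cells without vessels, nerves or immune cells, and the titles number them as biological replicates without saying whether they came from separate cell batches. The p-values therefore set the difference between groups against the spread between these constructs.

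Wnt proteins are lipid-modified glycoproteins that bind a Frizzled receptor together with a co-receptor. Binding with Lrp5 or Lrp6 stabilises beta-catenin, which enters the nucleus and works with TCF/LEF factors, whereas binding with Ror1, Ror2 or other partners feeds the polarity and calcium branches. In muscle the pathway takes part in embryonic myogenesis, in the expansion of satellite cells and in the switch of myoblasts from proliferation to fusion.

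TNF-alpha constructs carried much lower levels of 3 secreted inhibitor transcripts (Sfrp2, Sfrp4 and Wif1) and of the receptor gene Ror1. The abundant ligand genes Wnt9a and Wnt10b were lower by 2.21-fold and 2.77-fold, while Wnt10a, also abundant, was not past the test. TNF-alpha constructs carried higher levels of the ligand genes Wnt4, Wnt5b, Wnt6 and Wnt11, of the receptor genes Fzd7, Lrp5 and Lgr6, and of the inhibitor gene Sfrp1. Among the 9 tested Frizzled genes 6 fell and 1 rose, and the scarce transcripts of Rspo3, Rspo4 and Lgr5 also fell. Of the 50 genes, 37 had enough counts to be tested, 8 rose, 16 fell and 13 were not past edgeR's quasi-likelihood test at an adjusted p under 0.05. Of the 15792 genes tested in all, 27.6% rose and 27.9% fell. Among the 37 tested members the shares were 21.6% and 43.2%, and their median log2 fold change was -0.27 beside 0.00 over all genes. In 8 members the 3 TNF-alpha libraries all lay above the 3 vehicle libraries and in 16 they all lay below, where 32.6% and 31.9% of all tested genes did so. A change of at least 2-fold was seen in 6 of the members that rose and in 10 of those that fell. Over all 15792 tested genes, 1338 rose and 1494 fell by at least 2-fold.

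**Figure D1:**
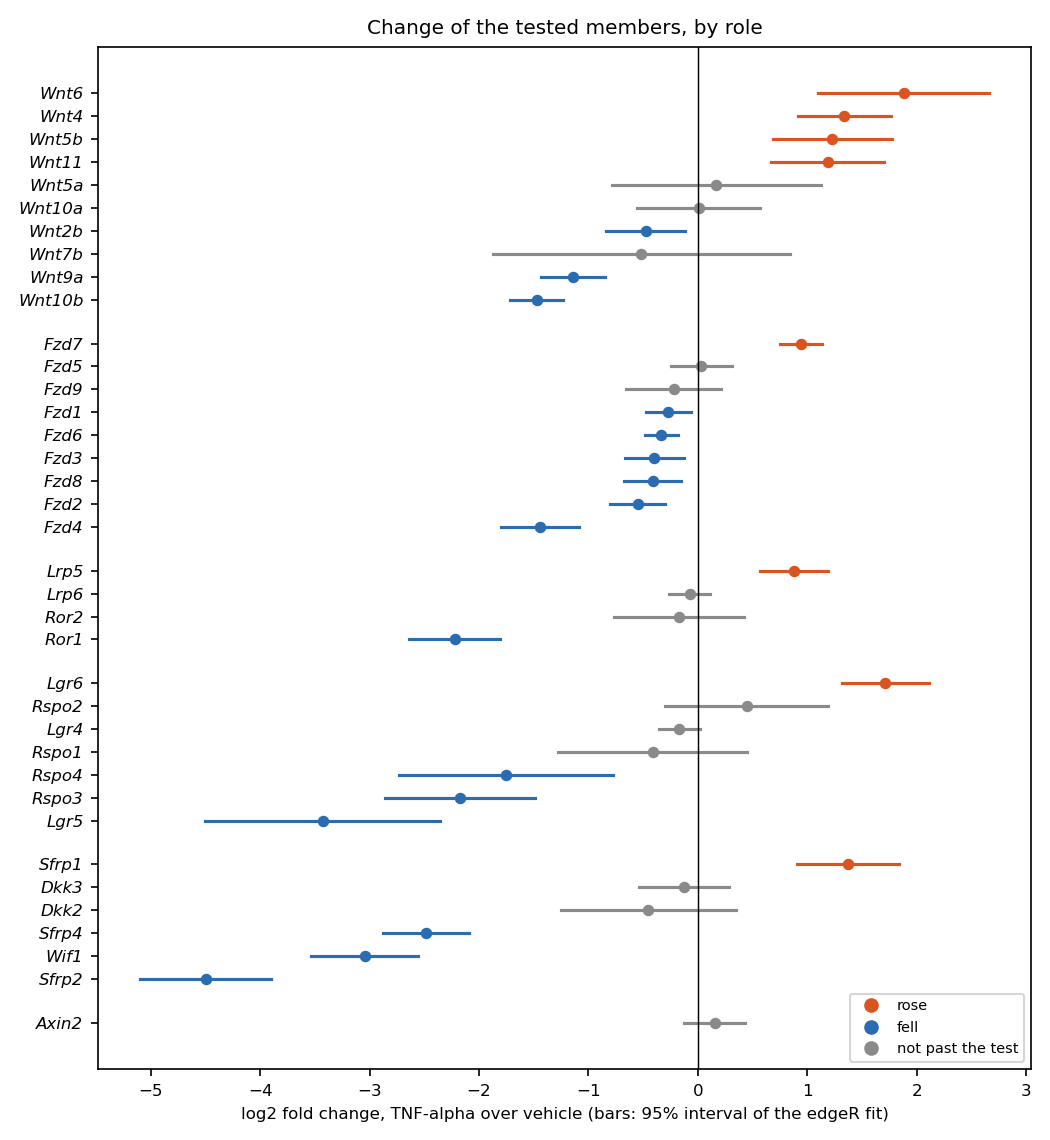
Log2 fold change of the 37 tested members, TNF-alpha over vehicle, grouped by role, with the 95% interval of the edgeR fit as bars. The secreted inhibitors hold the lowest value, -4.50 for Sfrp2, and the ligands the highest, 1.88 for Wnt6.

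The libraries held 81713008 to 93533748 counts each. Levels are given as counts per 1000000 (CPM) after TMM scaling of the libraries. The identity of the cells was read from marker lists. The myotube genes Acta1, Myh3, Ckm, Tnnt3, Des, Myog and Tmem8c summed to 9589 to 11125 CPM in vehicle libraries and 6987 to 7929 CPM in TNF-alpha libraries, where 5 of the 7 fell and Myog rose. The leukocyte marker Ptprc had at most 4 counts in a library, the epithelial marker Epcam at most 2 and the adipocyte marker Lep 0. The other adipocyte genes, Adipoq, Plin1 and Cidec, had at most 18, 10 and 3 counts, and the adipocyte sum was at most 0.299 CPM. The epithelial genes Cdh1 and Krt14 were detected and fell, and the epithelial sum went from 3.78 to 4.79 CPM to 1.35 to 1.93 CPM. Cd68 rose, and the leukocyte sum went from 5.03 to 5.26 CPM to 19.4 to 20.8 CPM. The endothelial sum was at most 3.63 CPM. Of 5 myoblast and satellite cell genes tested, Pax7, Myod1 and Cdh15 fell, Myf5 rose and Vcam1 was not past the test. Their sums were 568 to 826 CPM with vehicle and 568 to 609 CPM with TNF-alpha. Vcam1 held most of the TNF-alpha sum, with 400, 436 and 401 CPM there and 307, 351 and 159 CPM with vehicle. Of 4 bone and cartilage genes tested, Sox9 rose, and the sum went from 95.01 to 108 CPM to 139 to 174 CPM. The proliferation genes Mki67, Top2a, Ccnb1 and Cdk1 all fell, from a sum of 208 to 320 CPM to 20.0 to 88.6 CPM. Of the 4 smooth-muscle genes, Acta2 and Tagln fell, while Myh11 and Cnn1 were scarce and not past the test. The smooth-muscle sum was 1317 to 1673 CPM with vehicle and 257 to 296 CPM with TNF-alpha. Most of it was Acta2, with 1615, 1494 and 1273 CPM and then 251, 266 and 284 CPM. Of 6 fibroblast genes, 2 rose (Pdgfra and Dcn), 3 fell (Lum, Dpt and Pi16) and Thy1, with at most 4 counts, was not tested. The fibroblast sum went from 2004 to 2551 CPM to 5933 to 6267 CPM, most of it Dcn, and without Dcn from 205 to 243 CPM to 100.0 to 140.3 CPM. The part of these shifts in the changes of the Wnt genes was not tested. In these bulk libraries fewer cells of a kind and less RNA per cell cannot be told apart.

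Among the ligands, 4 rose, 3 fell and 3 did not pass, and the other 9 of the 19 had too few counts. Levels between genes are compared per kilobase of exon. On that scale Wnt10a (15.7 ± 2.84 CPM per kilobase; SD, n = 3) and Wnt9a (13.8 ± 2.01) led the vehicle libraries, with overlapping ranges, followed by Wnt10b (5.16 ± 0.365), whose range lay apart from both. With TNF-alpha the order was Wnt10a (15.8 ± 4.50), Wnt9a (6.24 ± 0.768), Wnt6 (3.32 ± 0.985), Wnt4 (2.86 ± 0.493) and Wnt10b (1.86 ± 0.188), and of these neighbours only Wnt6 and Wnt4 overlapped.

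Wnt9a, a ligand of the beta-catenin branch (GRCm38 chromosome 11, 59306928 to 59333552, plus strand), measured 39.0, 52.4 and 46.1 CPM in vehicle libraries 1 to 3 and 23.4, 20.7 and 18.3 CPM in TNF-alpha libraries 1 to 3. All 3 treated libraries lay below the lowest vehicle library. The gene fell 2.21-fold (log2 fold change -1.14 ± 0.13 SE, edgeR adjusted p = 1.37e-04). Wnt10b, known for holding mesenchymal cells back from the fat-cell fate (chromosome 15, 98770712 to 98778150, minus strand), went from 17.0, 16.7 and 19.0 CPM to 6.29, 6.99 and 5.71 CPM. The groups were well separated and each was tight. Wnt10b fell 2.77-fold (-1.47 ± 0.11, edgeR adjusted p = 9.06e-06). The smaller fall of Wnt2b, from 2.16, 2.08 and 2.11 CPM to 1.51, 1.38 and 1.67 CPM, was -0.48 ± 0.16 (edgeR adjusted p = 0.031). Its adjusted p was 0.0538 with the replicate number as a block. It was 0.0762, 0.0618 and 0.0575 without vehicle replicates 1, 2 and 3, and 0.0599 and 0.0882 without TNF-alpha replicates 1 and 2. The log2 fold change in these 6 fits stayed between -0.49 and -0.41.

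Among the ligands that rose, Wnt6 had the largest fold change. Wnt6 (chromosome 1, 74771892 to 74785322, plus strand) went from 1.38, 1.65 and 2.88 CPM to 4.95, 9.22 and 7.66 CPM. All 3 treated libraries lay above all 3 vehicle libraries. Wnt6 rose 3.68-fold (1.88 ± 0.33, edgeR adjusted p = 0.00237). Its neighbour Wnt10a lies 6193 bases away on the same strand and had 30.9, 40.8 and 44.5 CPM in vehicle libraries and 28.5, 50.6 and 38.0 CPM in TNF-alpha libraries. These ranges overlapped and the log2 fold change was 0.01, with a 95% interval of -0.55 to 0.57. Wnt4, a ligand with roles in kidney, gonad and muscle development (chromosome 4, 137277489 to 137299726, plus strand), went from 3.59, 5.13 and 5.49 CPM to 14.3, 10.2 and 11.6 CPM. The lowest treated library was above the highest vehicle library. Wnt4 rose 2.53-fold (1.34 ± 0.18, edgeR adjusted p = 3.93e-04).

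Wnt11 and Wnt5b, ligands of the branches that do not act through beta-catenin, rose by similar amounts. Wnt11 (chromosome 7, 98835112 to 98855195, plus strand) went from 2.21, 3.86 and 3.29 CPM to 5.67, 8.49 and 7.23 CPM. It rose 2.28-fold (1.19 ± 0.23, edgeR adjusted p = 0.0023). Wnt5b (chromosome 6, 119432531 to 119544347, minus strand) went from 1.45, 1.12 and 0.783 CPM to 2.23, 2.79 and 2.85 CPM. In both genes every treated library lay above every vehicle library, and Wnt5b rose 2.34-fold (1.23 ± 0.24, edgeR adjusted p = 0.00235). Wnt5a, the paralog of Wnt5b, had only 11 to 24 counts in a library and a log2 fold change of 0.17 with a 95% interval of -0.78 to 1.12.

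The promoters of Wnt11 and Wnt5b are shown because, of the promoter windows of tested members, theirs alone held the core letters that TCF/LEF factors bind, CTTTGAT or CTTTGAA, searched on both strands. Each window runs from 250 bases before to 50 bases after an annotated start (RefSeq, GRCm38.p6), is written 5′ to 3′ on the gene's strand, and has the match in capitals. The Wnt11 match reads ATCAAAG, the reverse complement, and begins 51 bases before the start. A further Wnt11 window, chr7:98838595-98838894, held no match. The Wnt5b match reads CTTTGAT and begins 71 bases before the start, in 1 of 3 start windows listed for this gene. The windows are chr7:98834862-98835161 (plus strand) and chr6:119449337-119449636 (minus strand).
Wnt11: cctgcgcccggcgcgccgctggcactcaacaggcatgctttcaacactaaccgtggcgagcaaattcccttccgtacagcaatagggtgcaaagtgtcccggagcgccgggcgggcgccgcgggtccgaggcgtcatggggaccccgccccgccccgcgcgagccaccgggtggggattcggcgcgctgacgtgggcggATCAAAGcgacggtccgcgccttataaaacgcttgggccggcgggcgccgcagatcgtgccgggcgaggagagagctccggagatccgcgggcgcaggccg
Wnt5b: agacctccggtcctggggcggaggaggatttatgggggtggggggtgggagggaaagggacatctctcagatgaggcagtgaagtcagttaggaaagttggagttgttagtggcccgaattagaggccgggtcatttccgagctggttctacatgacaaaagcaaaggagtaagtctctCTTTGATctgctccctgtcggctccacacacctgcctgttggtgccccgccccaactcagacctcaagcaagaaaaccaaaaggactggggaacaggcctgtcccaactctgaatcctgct
Windows were found for 33 of the 50 members, 36 windows in all. Those with a match were 3 of 36 (8.33%, the third being of the untested Dkk1), beside 8.65% of all 32851 windows. By outcome they were 2 of 9 windows, from 6 genes, of members that rose and 0 of 9, from 9 genes, of members that fell. These numbers are too small to compare the outcomes.

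The remaining ligand genes were at low levels. Wnt7b had 2.08, 2.53 and 5.34 CPM in vehicle libraries and 1.13, 4.06 and 1.79 CPM in treated libraries, and was not past the test (log2 fold change -0.52, 95% interval -1.87 to 0.84). The antisense gene AU022754 shares 324 exon bases with Wnt7b. Of the untested ligands, Wnt1 reached 22 counts, Wnt3 14, Wnt2 12 and Wnt8a 7. Wnt8b, Wnt7a, Wnt16 and Wnt3a had at most 4, 2, 2 and 1 counts, and Wnt9b had 0 in all 6 libraries. A count of 0 allows up to 3 counts per library, about 0.0321 to 0.0367 CPM. Wnt7a, the ligand known to act on satellite cells through Fzd7, was thus not detectable beyond 2 counts in 1 TNF-alpha library.

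**Figure D2:**
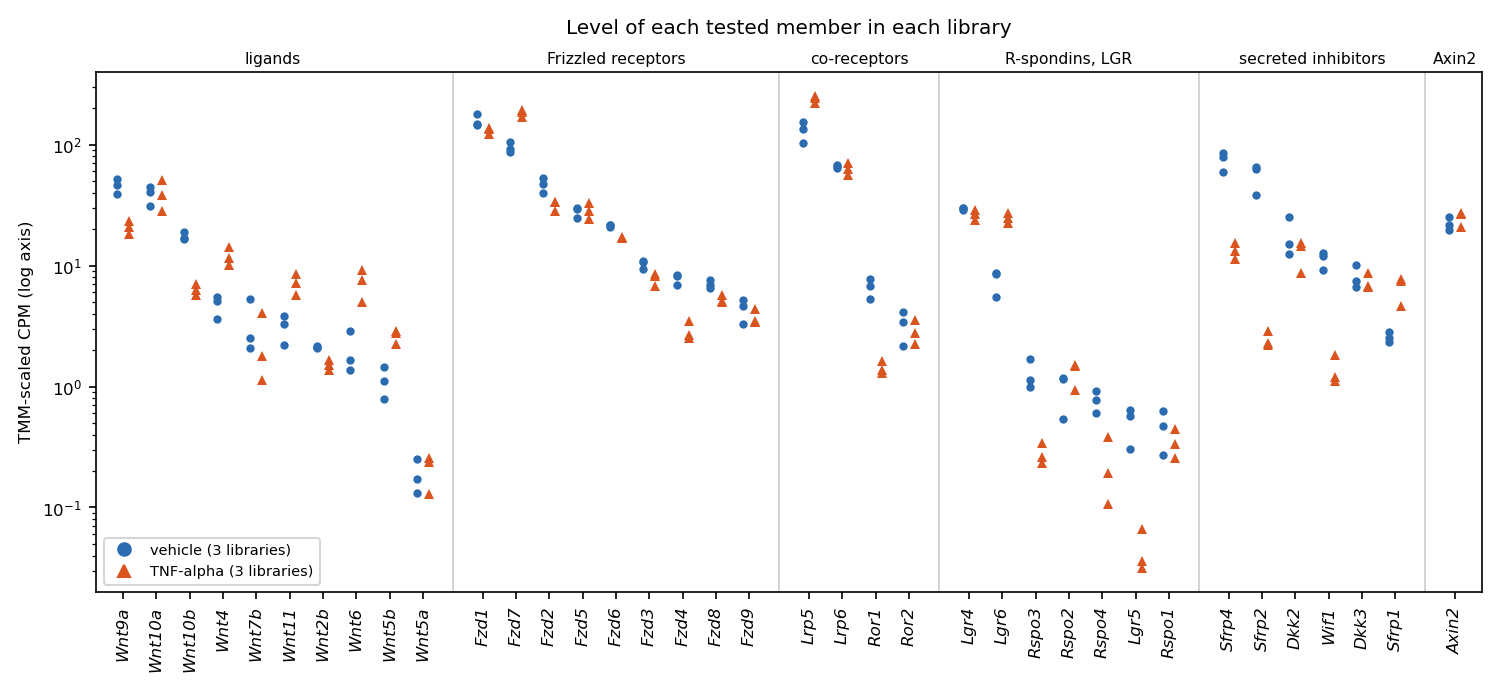
Level of each of the 37 tested members in each library, as TMM-scaled CPM on a log axis, with circles for the 3 vehicle and triangles for the 3 TNF-alpha libraries. The groups are apart for Sfrp2, Sfrp4 and Wif1 (lower with TNF-alpha) and for Fzd7, Lrp5 and Lgr6 (higher), and overlap for Wnt10a, Fzd5, Lrp6 and Axin2.

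More Frizzled transcripts fell than rose. Of 9 tested receptors, 6 fell, 1 rose and 2 did not pass, and Fzd10 had 0 counts in all 6 libraries. Fzd7, the receptor studied in satellite cells (chromosome 1, 59482424 to 59486955, plus strand), went from 87.5, 106 and 91.7 CPM to 171, 194 and 185 CPM. The treated libraries lay far above the vehicle libraries. Fzd7 rose 1.93-fold (0.95 ± 0.08, edgeR adjusted p = 2.99e-05). Fzd4, which also serves as the receptor of norrin (chromosome 7, 89404355 to 89413134, plus strand), went from 8.33, 8.25 and 6.97 CPM to 2.51, 2.67 and 3.49 CPM. It fell 2.72-fold (-1.44 ± 0.16, edgeR adjusted p = 8.56e-05), with no overlap between groups.

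The other falls were smaller than 1.5-fold. Fzd2 went from 40.1, 52.7 and 47.2 CPM to 33.8, 28.4 and 33.4 CPM (-0.55 ± 0.11, edgeR adjusted p = 0.00301). Fzd6 went from 21.8, 21.5 and 21.01 CPM to 16.9, 17.0 and 17.1 CPM (-0.33 ± 0.07, edgeR adjusted p = 0.00266), and its libraries differed little within each group. Fzd8 went from 6.50, 6.92 and 7.56 CPM to 5.68, 5.07 and 5.03 CPM (-0.41 ± 0.11, edgeR adjusted p = 0.014). Fzd3, a receptor of planar polarity in neurons, went from 10.9, 9.36 and 10.7 CPM to 8.26, 8.47 and 6.76 CPM (-0.40 ± 0.12, edgeR adjusted p = 0.0197). Fzd1, the most abundant Frizzled transcript in vehicle libraries, had 149, 179 and 145 CPM there and 134, 122 and 136 CPM with TNF-alpha. Its groups were separate but close together (-0.27 ± 0.09, edgeR adjusted p = 0.0313).

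Calls for 3 of these receptors were lost in some fits with 1 library fewer. The Fzd1 adjusted p was 0.0931 without vehicle replicate 2, where the log2 fold change was -0.17. It was 0.0548, 0.104 and 0.0516 without TNF-alpha replicates 1, 2 and 3, and 0.0665 with the replicate number as a block. The log2 fold changes in those 4 fits were -0.29, -0.22, -0.30 and -0.26. The adjusted p of Fzd3 was 0.0682 without vehicle replicate 1 (log2 fold change -0.36) and 0.0748 without TNF-alpha replicate 3 (-0.30), and that of Fzd8 was 0.0544 without TNF-alpha replicate 3 (-0.38). Fzd5 (0.03, 95% interval -0.25 to 0.31) and Fzd9 (-0.22, -0.66 to 0.22) were not past the test.

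Among the Frizzled genes the most abundant transcript per kilobase was Fzd1 with vehicle and Fzd7 with TNF-alpha. On the per-length scale Fzd1 had 37.6 ± 4.47 and Fzd7 20.97 ± 2.13 CPM per kilobase in vehicle libraries, and 31.2 ± 1.87 and 40.4 ± 2.57 CPM per kilobase with TNF-alpha, with separate ranges in each group. Fzd7 made up 24.4%, 24.7% and 25.1% of the summed Frizzled level in vehicle libraries and 42.2%, 46.9% and 43.4% in TNF-alpha libraries. The share of Fzd1 was 44.9%, 45.1% and 42.7% and then 35.8%, 31.8% and 34.6%. The summed level itself was 79.1 to 94.6 CPM per kilobase with vehicle and 89.3 to 93.8 with TNF-alpha, so the ranges overlapped while the make-up differed.

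Of the 4 co-receptor genes, 1 rose, 1 fell and 2 did not pass. Lrp5 (chromosome 19, 3584828 to 3686564, minus strand) went from 104, 134 and 153 CPM to 221, 254 and 245 CPM. All treated libraries were above all vehicle libraries, and Lrp5 rose 1.84-fold (0.88 ± 0.13, edgeR adjusted p = 9.43e-04). Lrp6, its close paralog, had 67.2, 67.5 and 64.6 CPM with vehicle and 56.0, 70.4 and 63.2 CPM with TNF-alpha. The Lrp6 log2 fold change was -0.07, with a 95% interval of -0.26 to 0.12. Ror1, a receptor tyrosine kinase for Wnt5a (chromosome 4, 100095791 to 100444765, plus strand), went from 6.83, 7.75 and 5.25 CPM to 1.36, 1.28 and 1.61 CPM. The lowest vehicle library was above every treated library, and Ror1 fell 4.66-fold (-2.22 ± 0.18, edgeR adjusted p = 1.84e-05). Ror2 had 2.16, 4.10 and 3.43 CPM and 2.25, 2.79 and 3.58 CPM, overlapping ranges, with a 95% interval of -0.77 to 0.42 for its log2 fold change.

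R-spondins bind LGR receptors and thereby protect Frizzled receptors from removal by Znrf3 and Rnf43. Of these 7 genes, 1 rose, 3 fell and 3 did not pass. Lgr6 (chromosome 1, 134983301 to 135105276, minus strand) went from 5.54, 8.69 and 8.55 CPM to 24.8, 27.4 and 22.7 CPM. It rose 3.28-fold (1.72 ± 0.17, edgeR adjusted p = 9.5e-05), and the groups were far apart. Lgr4, the most abundant of the 3 receptors, had 30.0, 30.1 and 28.7 CPM with vehicle and 23.7, 28.7 and 26.6 CPM with TNF-alpha (log2 fold change -0.17, 95% interval -0.35 to 0.02). On the per-length scale the Lgr6 level was 1.11 ± 0.260 beside 5.03 ± 0.134 CPM per kilobase for Lgr4 with vehicle, and 3.64 ± 0.346 beside 4.48 ± 0.434 with TNF-alpha. Lgr5, a stem-cell marker of the gut, was already scarce with vehicle, at 25.3 to 58.5 counts, and had 2.69 to 6.15 counts with TNF-alpha (-3.43 ± 0.47, edgeR adjusted p = 3.43e-04).

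The R-spondin transcripts themselves were at low levels. Rspo3 went from 1.13, 0.982 and 1.70 CPM to 0.342, 0.233 and 0.263 CPM, a 4.51-fold fall with no overlap (-2.17 ± 0.30, edgeR adjusted p = 3.59e-04). Rspo4 had 57 to 85 counts with vehicle and 10 to 33 with TNF-alpha (-1.75 ± 0.43, edgeR adjusted p = 0.00781), and its log2 fold change was -2.37 without TNF-alpha replicate 2, the treated library with 33 counts. Rspo1 (22 to 59 counts) and Rspo2 (50 to 140 counts) had overlapping groups and were not past the test.

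The largest fold change of any tested member was that of a secreted inhibitor, Sfrp2. Of 6 tested, 3 fell, 1 rose and 2 did not pass. Secreted Frizzled-related proteins carry a Frizzled-like cysteine-rich domain and bind Wnt ligands outside the cell. Sfrp2 (chromosome 3, 83766321 to 83774316, plus strand) went from 62.7, 65.5 and 38.2 CPM in vehicle libraries to 2.20, 2.29 and 2.88 CPM in TNF-alpha libraries. Vehicle library 3 was lower than the other two, yet still far above the treated libraries. Sfrp2 fell 22.6-fold (-4.50 ± 0.25, edgeR adjusted p = 1.36e-05). Sfrp4 (chromosome 13, 19623104 to 19632994, plus strand) went from 79.6, 84.7 and 59.3 CPM to 11.3, 15.4 and 13.3 CPM, again with vehicle library 3 the lowest of its group. It fell 5.59-fold (-2.48 ± 0.17, edgeR adjusted p = 2.26e-05).

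Wif1, which binds Wnt ligands through its own WIF domain (chromosome 10, 121033960 to 121100650, plus strand), went from 9.21, 11.97 and 12.8 CPM to 1.19, 1.12 and 1.81 CPM. The groups were far apart and Wif1 fell 8.25-fold (-3.05 ± 0.22, edgeR adjusted p = 1e-05). Sfrp1 (chromosome 8, 23411502 to 23449632, plus strand) moved the other way, from 2.35, 2.80 and 2.52 CPM to 4.61, 7.75 and 7.48 CPM. Sfrp1 rose 2.58-fold (1.37 ± 0.20, edgeR adjusted p = 5.58e-04), and its lowest treated library was above every vehicle library.

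The promoter windows of Sfrp2 and Wif1, the members of this group with the steepest falls, held neither TCF/LEF string, which says only that these letters are not in these windows. They are chr3:83766071-83766370 and chr10:121033754-121034053, both on the plus strand, drawn as above with no capitals.
Sfrp2: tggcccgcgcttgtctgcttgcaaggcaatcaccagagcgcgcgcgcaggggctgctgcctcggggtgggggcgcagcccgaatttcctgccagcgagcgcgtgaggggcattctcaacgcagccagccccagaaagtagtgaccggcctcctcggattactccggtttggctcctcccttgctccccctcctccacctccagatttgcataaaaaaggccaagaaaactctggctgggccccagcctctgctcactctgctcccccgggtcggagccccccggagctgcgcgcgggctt
Wif1: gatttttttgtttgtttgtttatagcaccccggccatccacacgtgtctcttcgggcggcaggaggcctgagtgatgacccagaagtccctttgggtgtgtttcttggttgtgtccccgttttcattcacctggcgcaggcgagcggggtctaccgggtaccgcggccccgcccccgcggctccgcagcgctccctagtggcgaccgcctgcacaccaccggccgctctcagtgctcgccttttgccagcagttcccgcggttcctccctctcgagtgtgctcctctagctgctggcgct
The G and C content of member windows was high whatever the outcome, with medians of 67.7% for the 9 windows of members that rose and 66.3% for the 9 of members that fell, beside 52.7% over all windows.

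Dickkopf proteins block Lrp5 and Lrp6, except Dkk3, a divergent member. Dkk2 had 15.1, 12.5 and 25.3 CPM with vehicle and 15.4, 14.4 and 8.74 CPM with TNF-alpha, so the ranges overlapped and the log2 fold change was -0.45 with a 95% interval of -1.25 to 0.35. Dkk3 had 6.66 to 10.2 CPM with vehicle and 6.68 to 8.75 CPM with TNF-alpha (-0.13, 95% interval -0.54 to 0.28). Dkk1, the best known of the family, was too scarce to be tested, with 8.11, 4.29 and 8.17 estimated counts with vehicle and 0.05, 0.23 and 0.1 with TNF-alpha. With no filter on low counts it passed the test (edgeR adjusted p = 0.0129). Dkk4 had at most 6 counts and Sfrp5 at most 12.

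Summed per kilobase of exon, the 9 inhibitors measured 58.6, 61.8 and 47.7 in vehicle libraries and 11.5, 13.5 and 11.4 in TNF-alpha libraries. The ligand sum was 32.9, 41.7 and 43.0 with vehicle and 29.0, 39.8 and 32.6 with TNF-alpha. The inhibitor sums were thus far apart between groups and the ligand sums overlapped. Sfrp2 made up 49.7%, 49.2% and 37.2% of the inhibitor sum with vehicle and 8.87%, 7.85% and 11.7% with TNF-alpha. The share of Dkk2 was 5.44% to 14.3% and then 20.7% to 36.1%, and that of Sfrp1 0.918% to 1.21% and then 9.14% to 15.0%, although the Dkk2 level itself was not past the test. These sums and shares are descriptions and no test was made on them.

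**Figure D3:**
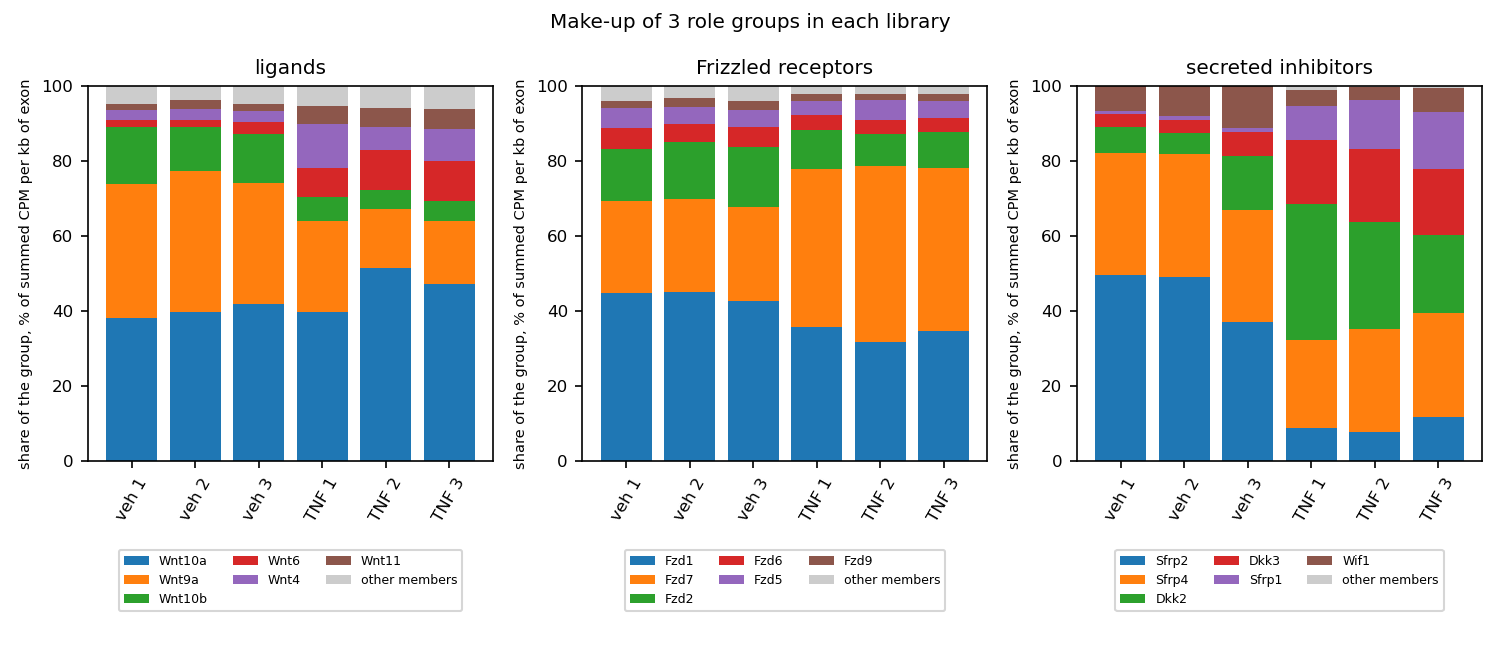
Share of each leading member in the summed per-length level (CPM per kilobase of exon) of the ligands, Frizzled receptors and secreted inhibitors, in each vehicle (veh) and TNF-alpha (TNF) library. Fzd7 goes from about 24.7% to 44.1% of the receptor sum and Sfrp2 from 45.3% to 9.48% of the inhibitor sum, as group means.

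Axin2, a direct target of beta-catenin and a brake on it, served as the feedback gene. It had 19.9, 25.3 and 21.7 CPM with vehicle and 20.9, 27.0 and 26.6 CPM with TNF-alpha. The groups overlapped and the log2 fold change was 0.16 ± 0.12 (edgeR adjusted p = 0.311, 95% interval -0.12 to 0.44). A 2-fold change in either direction lies outside this interval.

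The counts in the other pathway lists stand beside the 27.6% of all tested genes that rose and the 27.9% that fell. The genes that release Wnt ligands and act on them outside the cell fell for the most part. Of 13 tested, 8 fell, 3 rose and 2 did not pass, with a median log2 fold change of -0.61, so that 61.5% fell and 23.1% rose. Wls, the carrier that escorts Wnt proteins to the cell surface, went from 484 ± 11.1 to 218 ± 14.6 CPM (-1.15 ± 0.07, edgeR adjusted p = 3.38e-06). Porcn, the enzyme that attaches their lipid, fell from 150.5 ± 12.2 to 119 ± 3.56 CPM (-0.34 ± 0.07, edgeR adjusted p = 0.00327). The glypican gene Gpc6 fell by 1.40 ± 0.07 on the log2 scale. Notum, which removes the lipid from Wnt proteins, rose from 3.45 ± 0.899 to 13.2 ± 2.50 CPM (1.93 ± 0.22, edgeR adjusted p = 1.93e-04), and Tsku, another extracellular modulator, by 1.43 ± 0.10. Frzb, the remaining gene of the secreted Frizzled-related family, and Apcdd1, a membrane-bound inhibitor, were looked at after their values were seen. Frzb fell from 0.244 ± 0.0575 to 0.0386 ± 0.0149 CPM (-2.63 ± 0.48, edgeR adjusted p = 0.00162). With TNF-alpha its libraries had 0.0214, 0.0466 and 0.0477 CPM, close to the 0.0321 to 0.0367 CPM that a count of 0 allows. The size of the Frzb fall is therefore uncertain. Apcdd1 fell from 40.8 ± 4.72 to 15.1 ± 1.33 CPM (-1.44 ± 0.10, edgeR adjusted p = 8.96e-06). Of 9 further receptor genes tested, 4 fell, 0 rose and 5 did not pass. Among them Lrp4 and Musk, which form the agrin receptor of the nerve-muscle synapse, fell by 1.26 ± 0.08 and 0.89 ± 0.13.

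Genes of the intracellular canonical cascade changed in both directions. Of 31 genes tested, 12 rose, 7 fell and 12 did not pass, and the median log2 fold change was 0.08. The shares were 38.7% and 22.6%. Ctnnb1, encoding beta-catenin, had 557, 574 and 512 CPM with vehicle and 567, 574 and 596 CPM with TNF-alpha (0.08 ± 0.07, 95% interval -0.08 to 0.24). Of the genes of the complex that degrades it, Axin1 rose by 0.36 ± 0.07 and Gsk3b by 0.28 ± 0.07, while Apc was not past the test (-0.14, 95% interval -0.29 to 0.02). Apc2 rose by 1.29 ± 0.12 and the kinase gene Csnk1g1 by 0.85 ± 0.09. The largest fall was that of Nkd2, a feedback inhibitor that binds Dishevelled, from 57.3 ± 10.9 to 8.21 ± 0.349 CPM (-2.80 ± 0.14, edgeR adjusted p = 2.06e-06), and Amer1 fell by 0.65 ± 0.08.

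Of 19 nuclear factors, 10 fell (52.6%), 6 rose (31.6%) and 3 did not pass (median -0.24). The transcription factor genes Lef1 and Tcf7l2 fell by 0.56 ± 0.10 and 0.74 ± 0.08 (edgeR adjusted p = 0.00125 and 1.08e-04). The remaining genes of that family, Tcf7 and Tcf7l1, were added after their values were seen and fell by 0.83 ± 0.13 and 0.71 ± 0.10. The co-repressor gene Tle2 fell by 1.27 ± 0.08, whereas the cofactor genes Ep300 and Ctbp2 rose by 0.48 ± 0.06 and 0.77 ± 0.07. In the polarity and calcium branch, 12 of 31 rose (38.7%), 10 fell (32.3%) and 9 did not pass (median -0.05). Over all genes these shares were 27.6% and 27.9%. Daam2, a formin-related effector of Dishevelled, fell from 126 ± 3.76 to 20.7 ± 0.761 CPM (-2.60 ± 0.06, edgeR adjusted p = 3.77e-08) and the polarity gene Prickle1 by 1.40 ± 0.08. The polarity cadherin gene Celsr1 rose by 1.70 ± 0.23 and the kinase gene Prkca by 0.75 ± 0.09.

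The list of genes commonly read as beta-catenin targets moved both ways. Without the members, 26 were tested, of which 14 fell (53.8%), 8 rose (30.8%) and 4 did not pass (median -0.50). This list is not separate from those above, since Lef1, Tcf7, Nkd1, Nkd2, Znrf3, Apcdd1 and Notum were counted there too. The gene Irs1, encoding an insulin receptor substrate, fell by 1.36 ± 0.06, and Nkd2, also in this list, fell as given above. Ppard, a nuclear receptor of fatty acid use, rose by 1.99 ± 0.08, and Grem1, a secreted inhibitor of bone morphogenetic proteins, rose from 341 ± 14.2 to 1521 ± 221 CPM (2.16 ± 0.11, edgeR adjusted p = 1.57e-06). Genes of this list picked after their values were seen were Wisp2 (-4.18 ± 0.25), Nkd1 (-1.47 ± 0.42), Tcf4 (-1.22 ± 0.09) and Fgf18 (4.70 ± 0.43). Fgf18 had only 0.111 ± 0.0565 CPM with vehicle and 2.93 ± 1.18 CPM with TNF-alpha, so its fold change rests on few vehicle counts. Nkd1 was scarce in both groups, at 0.299 ± 0.0902 CPM with vehicle and 0.107 ± 0.0325 CPM with TNF-alpha. Nkd1 had an edgeR adjusted p of 0.0155, which was 0.0572 and 0.0543 without vehicle replicates 1 and 2 and 0.0563 and 0.0506 without TNF-alpha replicates 1 and 3, with log2 fold changes of -1.32, -1.36, -1.26 and -1.48. Tcf4 encodes an E protein and is distinct from Tcf7l2. Of 10 muscle regulators linked with Wnt signalling and outside the members, 6 fell, 4 rose and 0 did not pass. Bcl9, which rose, was also counted among the nuclear factors. The differentiation factor gene Myog and the syndecan gene Sdc4, a partner of Fzd7, rose by 0.39 ± 0.08 and 0.88 ± 0.08.

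**Figure D4:**
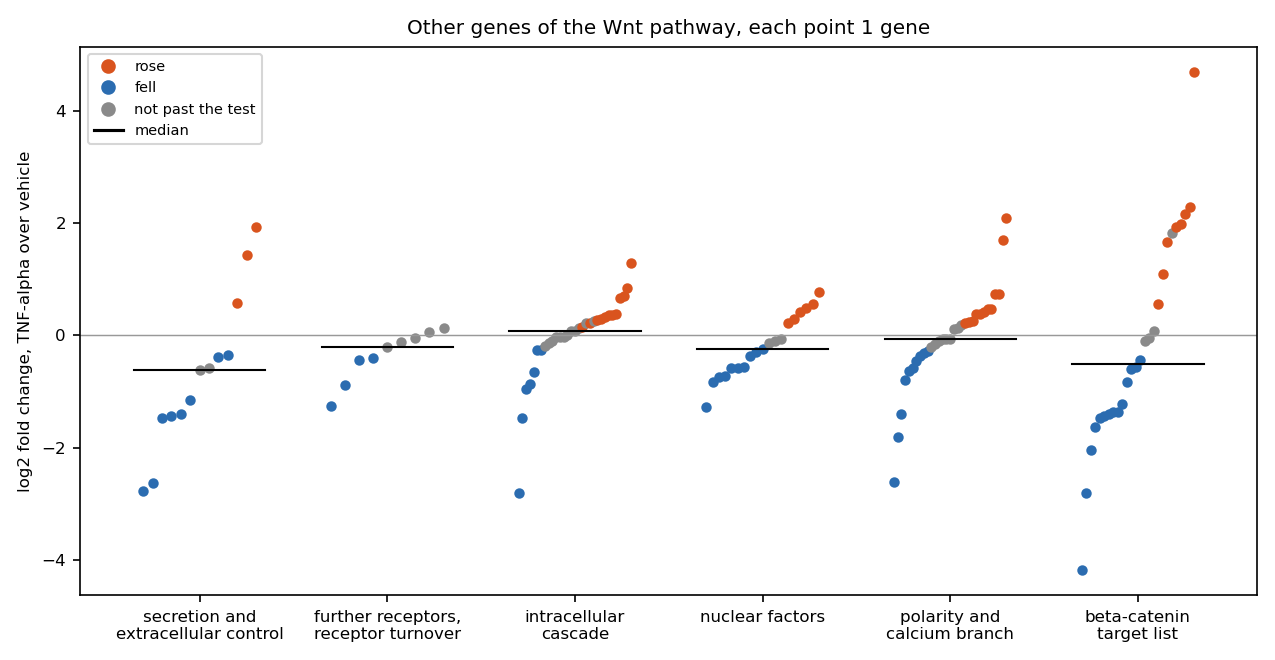
Log2 fold change (TNF-alpha over vehicle) of the other Wnt pathway genes tested, each point 1 gene, by list, with the list's median as a bar. The intracellular cascade centres near 0 (median 0.08) while secretion and extracellular control centres at -0.61.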

How the data were processed

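Polyadenylated RNA of 6 libraries, 3 per group, was made into stranded libraries and sequenced from both ends, per the labels' protocols. The sample titles gave each library its group and number. The deposited values are estimated counts per gene, since 20.1% to 21.0% of each library's values are not whole. The submitters' processing notes name TopHat2 2.1.1, Bowtie2 2.3.5.1, featureCounts of Subread 2.0.0, DESeq2 and the builds mm10 and GRCm38. Strand use in counting is not given in the sources used here. For this reason 8 members that share exon bases with a gene on the other strand (Axin2, Fzd5, Fzd6, Rspo3, Sfrp2, Wnt11, Wnt5a and Wnt7b) are uncertain by that amount. Counts that were not whole occurred in Dkk1, Dkk2, Fzd3, Lgr5, Wif1, Wnt2b, Wnt4 and Wnt7b.

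Counts were rounded, filtered with filterByExpr of edgeR 4.0.16 (R 4.3.3), scaled with TMM and tested over all genes with the quasi-likelihood test (robust, group only; Benjamini-Hochberg adjusted p under 0.05). In place of the whole counts stated by the submitters, the test thus used rounded estimates. Standard errors and 95% intervals derive from the F statistic, and the biological coefficient of variation was 12.1%. The procedure was checked on simulated counts in which few genes changed and all had the same biological coefficient of variation. That check does not cover changes as widespread as those seen here. Alternatives were other scalings, filters and rounding, no robust estimation, DESeq2 1.42.0, limma-voom (limma 3.58.1), a replicate block and leaving out each library. Replicates differed beyond sampling noise (chi-square per degree of freedom 22.9 to 70.1). Gene positions and exon lengths came from GENCODE M21, which held all 50 members. An NF-kB motif was searched as well, as a fixed letter string, and matched 0 of 36 member windows and 0.411% of all windows. With so rare a string, 0 matches in 36 windows cannot tell whether these promoters lack NF-kB sites.

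Members past the test whose mean reached 1 CPM in either group are given library by library, and the others in short. From each list of other pathway genes the 2 smallest p-values in each direction past the test were named, besides Ctnnb1, Lef1, Tcf7l2, Porcn, Wls, Gsk3b, Axin1 and Apc. For the list of muscle regulators the falls named by this rule are not reported here. The members and lists were chosen with earlier results of these data known.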

Additional observations from a re-analysis of the deposited data

How the results depend on the processing

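Over the 15 alternatives 8 members rose in each, and 13 to 17 fell beside 16 as reported. All 24 called members kept their direction in every alternative that tested them, and 20 also kept their call. The exceptions were Fzd1, Fzd3, Fzd8 and Wnt2b, as given with their values above. The stricter filter, 1 CPM in 3 libraries, left Lgr5, Rspo3 and Rspo4 untested. Lgr4 passed the test without TNF-alpha replicate 2 (log2 fold change -0.24, edgeR adjusted p = 0.0445). The correlations of the deviations of same-numbered libraries were 0.0428, -0.0454 and -0.114. Those of libraries with unlike numbers ran from -0.0671 to 0.107. Whether same-numbered constructs shared a cell batch cannot be read from these values. With the replicate block 8 members rose and 14 fell, and over all genes 4242 rose and 4244 fell. Among members not past the test the sign turned in places. With upper-quartile scaling the log2 fold changes were -0.0025 for Fzd5 and -0.0246 for Wnt10a, and Wnt10a had -0.0218 with limma-voom and -0.0123 with the replicate block. Leaving out 1 library gave -0.0901 to 0.1396 for Fzd5, -0.2247 to 0.1938 for Wnt10a, -0.0155 to 0.4457 for Wnt5a, -1.1877 to 0.0080 for Wnt7b, -0.1593 to 0.0087 for Lrp6, -0.3950 to 0.0329 for Ror2 and -0.2664 to 0.0694 for Dkk3. The cause was not tested. The 13 untested members had at most 22 counts in a library, and low expression and limited depth cannot be told apart for them.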
